A study of Mus musculus with 6 samples.

Results

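The DNA methyltransferases *Dnmt1*, *Dnmt3a*, *Dnmt3b* and *Dnmt3l* and their partner *Uhrf1* were examined in mouse embryonic stem cells (mESCs) that lack *Alkbh1*. All probe sets that the deposited annotation assigns to these 5 genes were taken, which gave 14 of the 33142 probe sets, and 5 of the 15357 named genes, in the larger of the 2 deposited tables. Probe sets that carried no symbol, or an older one, were assigned through the gene identifier, and *Uhrf1* is listed there under its former name Np95.

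DNA methylation in mammals is laid down and kept by different enzymes. DNMT3A and DNMT3B methylate cytosines de novo, and DNMT3L, which has no catalytic activity of its own, binds both and stimulates them. DNMT1 copies the pattern onto the new strand after replication, and UHRF1 recognises hemimethylated CpGs and brings DNMT1 to them. Embryonic stem cells express both systems, and the de novo enzymes are switched down when such cells are held in a naive, hypomethylated state.

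ALKBH1 belongs to the AlkB family of iron- and oxoglutarate-dependent dioxygenases. The series profiled total RNA of undifferentiated mESCs on 6 Affymetrix arrays, 3 of WT cells and 3 of *Alkbh1*-/- cells. Both groups were of C57BL/6 background, at passage 8 and day 0, untreated, and were grown with LIF, the cytokine that holds mESCs undifferentiated. By the study's methods, both lines were derived from littermate embryos of heterozygous parents and kept on irradiated fibroblast feeders. The arrays of each genotype carry the name of a single line, and nothing states that they came from separate cultures. The values used are 1 mean per genotype, or 1 over all arrays, so none below has an error and no test was run. Differences between lines and between genotypes cannot be told apart.

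The targeted gene was looked at first. *Alkbh1* had a mean intensity of 761 in WT and 25.7 in *Alkbh1*-/- mESCs at its brighter probe set, a log2 difference of -4.89, and of -1.79 at the other. Group means could be assigned to 4232 probe sets, the probe sets of the class comparison that could be matched by value (12.8% of the larger table). The authors listed only entries with a nominal p under 0.05, and the smallest difference among them was 0.37 on the log2 scale, or 1.29-fold. Among the pluripotency markers *Pou5f1* and *Sox2*, which encode core factors of the pluripotent state, had mean log2 levels over all arrays of 12.64 and 12.66, near the top of a range from 3.22 to 14.67 over the whole table. The 3 of 4 Y-linked genes with group means were close to the bottom of the scale in *Alkbh1*-/- cells, at intensities of 6.38 to 18.4 over 7 probe sets against 35.0 to 751 in WT, and 469 of the 499 X-linked probe sets with group means were higher in *Alkbh1*-/- cells. Of 6 X inactivation and X dosage genes, 4 had group means, all higher in *Alkbh1*-/- cells and 3 of them by more than 1.5-fold. Of all 4232 probe sets with group means, 32.8% were higher by more than 1.5-fold. The log2 differences were 0.95 for *Kdm5c*, 0.74 for *Kdm6a* and 0.70 for *Dusp9*. For *Eif2s3x* it was 0.51, at a probe set that was not its brightest. The groups thus also differ in RNA from the sex chromosomes. Because each genotype carries the name of a single line, this difference and that of genotype cannot be told apart in the values below. None of the 5 genes lies on a sex chromosome, but whether X- or Y-linked genes act on them here was not tested.

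The 2 catalytic de novo enzymes were lower in *Alkbh1*-/- than in WT mESCs at every probe set when entries were matched by value. All 8 probe sets of *Dnmt3a* and *Dnmt3b* had group means, all 8 were lower by more than 1.5-fold, and 7 were lower by more than 2-fold. By comparison, 30.3% of the 4232 probe sets with group means were lower by more than 1.5-fold, and 32.8% were higher by as much. Of the same 4232, 337 were lower by more than 2-fold. The 8 probe sets belong to only 2 genes and are not 8 separate cases. Counted over all 33142 probe sets, whether or not they had group means, the share lower by more than 1.5-fold was 3.87%. The median log2 difference of the 8 was -1.47, against -0.66 for the 2053 probe sets that were lower. These values rest on matching by value. Under the identifiers printed in the class comparison, 3 of the 8 would be higher in *Alkbh1*-/- cells, namely 1423066_at (0.61), 1423064_at (1.17) and 1418351_a_at (0.57), but so would the second probe set of the targeted gene (0.60) and the Y-linked *Eif2s3y* (0.53). Since the arrays measured RNA of whole cultures, fewer cells that express a gene and less RNA per cell cannot be told apart.

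*Dnmt3a* was measured by 5 probe sets. The brightest, 1423066_at, had a mean intensity of 1002 in WT and 307 in *Alkbh1*-/- cells, a log2 difference of -1.71 or 3.26-fold. At 1423064_at the intensity was 605 in WT and 180 in *Alkbh1*-/- cells, 3.36-fold apart. These 2 probe sets gave the largest differences of the gene, and only 57 and 51 of the 4232 probe sets had a more negative one. The dimmer probe sets gave smaller differences. At 1423065_at the intensity was 151 in WT and 58.6 in *Alkbh1*-/- cells, a log2 difference of -1.36. At 1423063_at it was 224 against 106, a log2 difference of -1.08. The dimmest, 1460324_at, read 98.9 in WT and 50.9 in *Alkbh1*-/- cells, and its log2 difference of -0.96 was the smallest among all 8. The direction was therefore shared by the 5 probe sets while the size varied by 0.79 on the log2 scale, from 1.94-fold to 3.36-fold.

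*Dnmt3b*, the enzyme that methylates centromeric repeats and CpG islands among other targets, was measured by 3 probe sets that gave closer values. The brightest, 1449052_a_at, had a mean intensity of 5077 in WT and 1825 in *Alkbh1*-/- cells, a log2 difference of -1.48 or 2.78-fold. The letter a in its name marks a probe set that detects several transcripts of 1 gene, as does that of the next brightest, 1418351_a_at. There the intensity was 3334 in WT and 1008 in *Alkbh1*-/- cells, a log2 difference of -1.73 and the largest of the gene. The third, 1442655_at, carries no symbol in the deposited table and was dim, with 121 in WT and 43.8 in *Alkbh1*-/- cells. Its log2 difference was -1.47, close to that of the brightest. The 3 differences spanned 0.26 on the log2 scale, less than the span for *Dnmt3a*, although the mean levels of the *Dnmt3b* probe sets covered 5.38 log2 units and those of *Dnmt3a* 2.97.

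**Figure D1:**
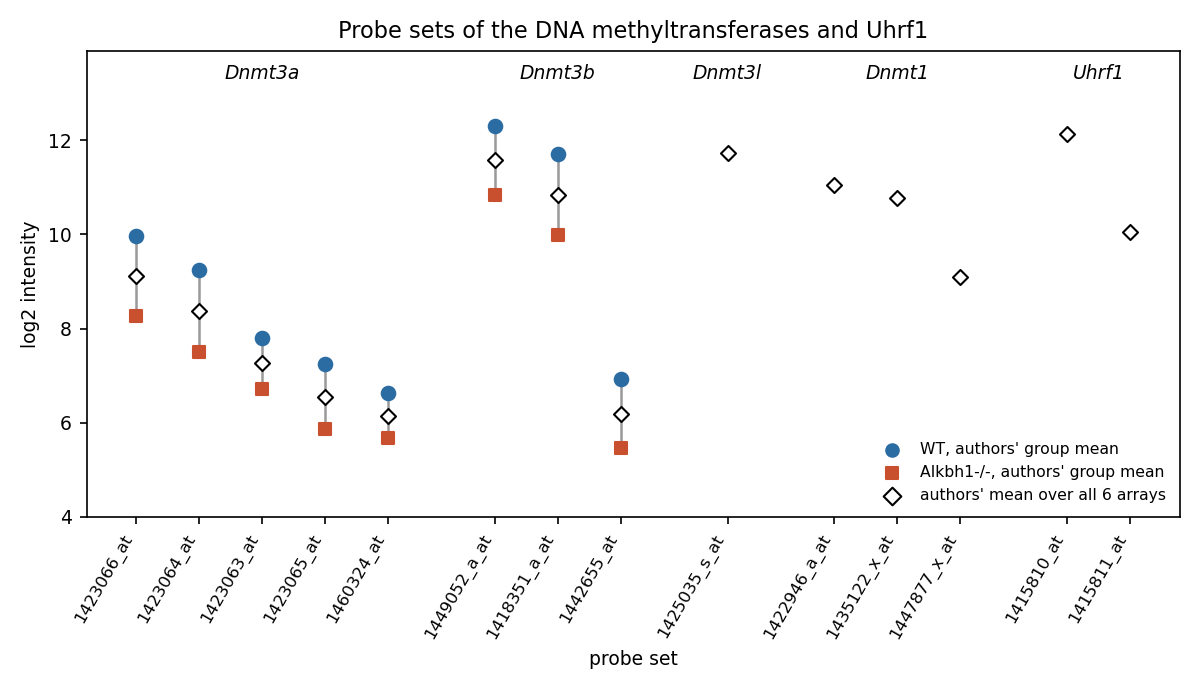
The vertical axis gives log2 intensity for each of the 14 probe sets, grouped by gene; circles are the authors' mean of the 3 WT arrays, squares that of the 3 *Alkbh1*-/- arrays and open diamonds the authors' mean over all 6 arrays. The square lies below the circle at all 8 probe sets of *Dnmt3a* and *Dnmt3b*, and the other 6 probe sets have only a diamond; no errors are drawn, and levels of different probe sets are not comparable.

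The remaining members are described by level alone, because the authors' own fold changes and tests were not used. *Dnmt3l*, the stimulator of both de novo enzymes, had 1 probe set, 1425035_s_at, with a mean log2 level of 11.72 over the 6 arrays and no group means. The letter s marks probes that can detect transcripts of more than 1 gene. The maintenance genes likewise had no group means at any of their 5 probe sets. The 3 probe sets of *Dnmt1* had mean log2 levels of 11.05 (1422946_a_at), 10.78 (1435122_x_at) and 9.09 (1447877_x_at). The letter x in the names of the last 2 marks probes that may bind unrelated transcripts. *Uhrf1* had mean log2 levels of 12.14 at 1415810_at and 10.04 at 1415811_at. All 6 levels lay above the median of 6.31 over the table.

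The contrast between the de novo and the maintenance genes was thus at most one of listing, not of a measured difference. Of the 9 de novo probe sets, 8 had group means, and of the 5 maintenance probe sets, 0 had them, while 12.8% of all probe sets did. For so few probe sets, 0 of 5 is close to that share and is not read as a result about the maintenance genes. By gene, 2 of 3 de novo members and 0 of 2 maintenance members had group means. The de novo member *Dnmt3l* had none, so the listing did not divide the genes by role. A probe set could be absent from the class comparison because it did not pass the filter applied before testing, which kept 7320 probe sets by a rule that was not stated, or because its nominal p was 0.05 or more, or because it was among the 94 entries that could not be matched to a single probe set. Which of these applied to *Dnmt1*, *Uhrf1* and *Dnmt3l* cannot be told from the values used here, and a missing group mean does not show that a gene was at the same level in both genotypes.

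**Figure D2:**
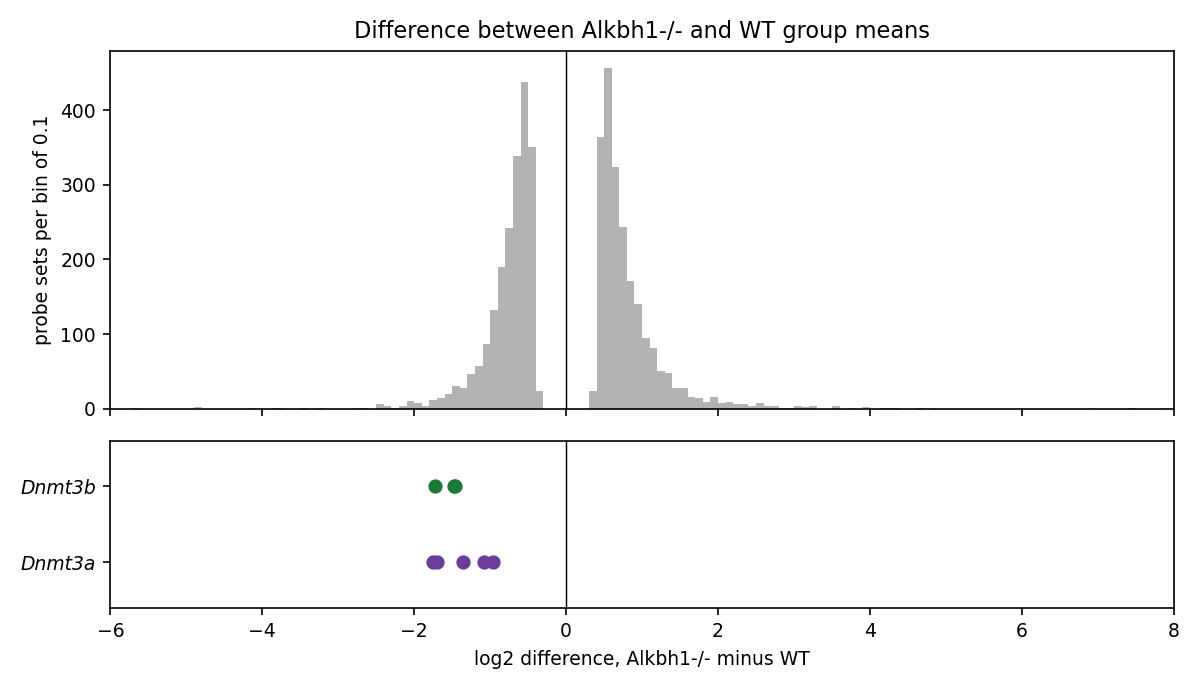
The upper panel counts the 4232 probe sets with group means by their log2 difference, *Alkbh1*-/- minus WT, in bins of 0.1, and the lower panel marks the 5 probe sets of *Dnmt3a* and the 3 of *Dnmt3b* on the same axis. Only entries with a nominal p under 0.05 were listed, and no difference smaller than 0.37 is among them; the marked probe sets lie between -1.75 and -0.96, in the lower tail.

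The RefSeq promoters of the 2 genes that were lower are shown next, since their RNAs were lower together. RefSeq (GRCm38.p6) gives 12 windows for the 5 genes, each from 250 bases before to 50 after an annotated start. For *Dnmt3a* the start inside the gene is printed and for *Dnmt3b* the only start listed, both on the plus strand and limited to the 250 bases before the start. Capitals mark the GC box, GGGCGG or CCGCCC on the other strand.

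Dnmt3a, chr12:3891494-3891743, plus strand: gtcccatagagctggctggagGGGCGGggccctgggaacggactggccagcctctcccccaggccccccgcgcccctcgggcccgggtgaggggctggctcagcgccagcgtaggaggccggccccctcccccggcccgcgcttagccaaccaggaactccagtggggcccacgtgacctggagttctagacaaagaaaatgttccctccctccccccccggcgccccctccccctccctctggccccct
Dnmt3b, chr2:153649199-153649448, plus strand: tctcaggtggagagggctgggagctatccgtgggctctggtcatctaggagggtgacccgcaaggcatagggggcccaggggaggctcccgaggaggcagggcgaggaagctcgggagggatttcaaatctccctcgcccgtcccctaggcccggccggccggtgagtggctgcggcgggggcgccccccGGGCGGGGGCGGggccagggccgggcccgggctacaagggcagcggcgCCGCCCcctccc

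The printed *Dnmt3b* stretch holds 21 CpGs and 3 GC boxes, 2 of them adjoining, and that of *Dnmt3a* holds 15 CpGs, 1 GC box and 1 E-box (CACGTG). Over the full 300 bases, *Dnmt3b* had 30 CpGs, more than 88.3% of the 32851 promoter windows of the mouse table, whose median was 7. The other 2 starts of *Dnmt3a*, whose windows overlap, had 46 and 47 CpGs and 6 and 7 GC boxes. The 3 windows of *Dnmt3l* were poor in CpGs, with 6, 4 and 3. The maintenance genes each had a window of 33 CpGs, and their other windows had 12 and 2 for *Dnmt1* and 12 for *Uhrf1*.

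The GC box was present in 9 of the 12 windows, against 35.7% of all windows in the table. CCAAT occurred in 4 of 12 windows, all of *Dnmt1* or *Uhrf1*, against 37.4% of all windows. TTTCGCGC, a sequence bound by E2F factors in cell cycle genes, occurred in 1 window of *Dnmt1* and 1 of *Uhrf1*, against 0.323% of all windows. TATAAA was found in 0 of the 12 windows and in 13.6% of all, and CACGTG in 2 of the 12 and in 7.15% of all. Both strands were searched, windows of 1 gene can overlap, and a match describes the letters without showing that a factor binds there.

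**Figure D3:**
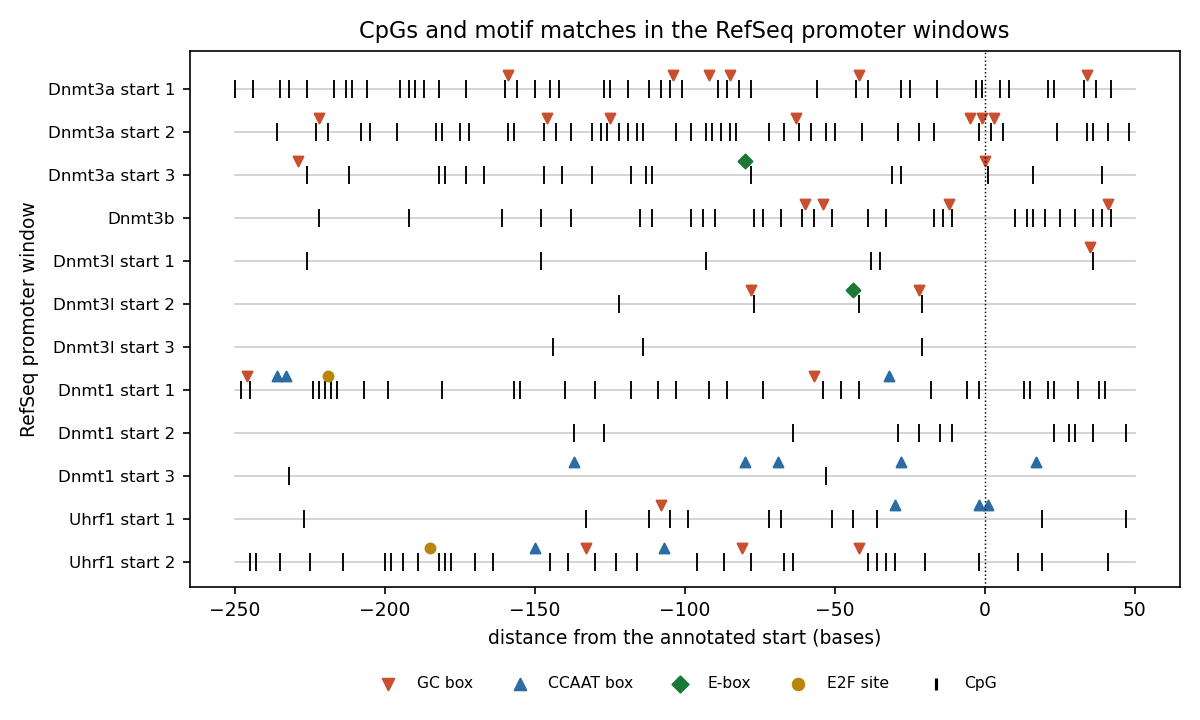
Each line is 1 of the 12 RefSeq promoter windows, with the distance from the annotated start in bases on the horizontal axis; ticks are CpGs and symbols are motif matches on either strand (the GC box, CCAAT box, E-box and E2F site spelled out in the text). CpGs are dense at 2 of the 3 *Dnmt3a* starts, at *Dnmt3b* and at 1 start each of *Dnmt1* and *Uhrf1*. They are sparse at the 3 *Dnmt3l* starts, and CCAAT matches lie only at *Dnmt1* and *Uhrf1*.

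The proteins that work with the methyltransferases were described from fixed lists, with the brightest probe set that had group means standing for each gene. Among 8 partners of the maintenance machinery, 1 had group means. This was *Pclaf*, which encodes a PCNA-binding factor, at the dimmer of its 2 probe sets, where the intensity was 460 in WT and 264 in *Alkbh1*-/- cells, a log2 difference of -0.80. *Pcna*, the replication clamp, and *Usp7*, a deubiquitinase that stabilises DNMT1 and UHRF1, had none. Their mean log2 levels over all arrays were 13.52 and 11.86.

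Of 12 recruiters and regulators of the methyltransferases, 4 had group means. *Prdm14*, a repressor of *Dnmt3b* and other methyltransferase genes in naive mESCs, had an intensity of 152 in WT and 592 in *Alkbh1*-/- cells, a log2 difference of 1.96. It thus differed in the opposite direction to *Dnmt3a* and *Dnmt3b*, and whether it bears on their RNA here was not tested. *Dppa3*, which shields DNA from demethylation in the zygote and displaces UHRF1 from chromatin, was 1882 in WT and 671 in *Alkbh1*-/- cells, a log2 difference of -1.49. *Suv39h1*, a histone H3 lysine methyltransferase of heterochromatin, had a log2 difference of 2.54 at the dim one of its 3 probe sets that had group means. The gene is X-linked, and X-linked probe sets were mostly higher in *Alkbh1*-/- cells, as given above. Whether this bears on the value of *Suv39h1* was not tested. *Ehmt1*, another H3 lysine methyltransferase, had a log2 difference of -0.47.

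Among genes related to the readers of methylated CpGs, *Mbd3*, a subunit of the NuRD complex, had a log2 difference of -0.47, under 1.5-fold. In active demethylation, 2 of the 6 genes on the table had group means. *Tet2*, a dioxygenase that oxidises 5-methylcytosine, was 726 in WT and 1387 in *Alkbh1*-/- cells, a log2 difference of 0.93, and *Gadd45g* had one of -1.07. *Tet2* was thus higher where *Dnmt3a* and *Dnmt3b* were lower, and a link between them was not tested. Among genes that handle the methyl donor, *Gnmt*, a glycine methyltransferase that consumes it, had a log2 difference of -0.55. *Trdmt1*, formerly Dnmt2, resembles the DNA methyltransferases but methylates tRNA, and neither of its 2 probe sets had group means.

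Germline genes that promoter methylation keeps silent in somatic cells were read as a list of targets. Of 8 on the table, 5 had group means, of which 4 were higher and 1 lower, all by more than 1.5-fold. Over all 4232 probe sets with group means, 2179 were higher, 32.8% by more than 1.5-fold, and 30.3% were lower by as much. *Dazl*, an RNA-binding protein of germ cells, was 53.0 in WT and 136 in *Alkbh1*-/- cells, a log2 difference of 1.36. *Mael*, a factor of the piRNA pathway, had a log2 difference of 0.92. The lower gene was *Ddx4*, a germ cell RNA helicase, at -0.71. It was the brightest of the list, with 485 in WT and 297 in *Alkbh1*-/- cells. *Taf7l*, which is X-linked, stood at 0.63, with 25.1 in WT and 38.9 in *Alkbh1*-/- cells. *Slc25a31*, which sets the median of the list, stood at 0.74, with 14.1 in WT and 23.6 in *Alkbh1*-/- cells. *Taf7l* and *Slc25a31* were thus dim, and the targeted *Alkbh1* itself read 25.7 and 34.6 in *Alkbh1*-/- cells. The median over the 5 genes was 0.74, against 0.67 over the probe sets that were higher and 0.42 over all 4232 with group means, among which no difference lay near 0. DNA methylation itself was not measured in these samples.

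**Figure D4:**
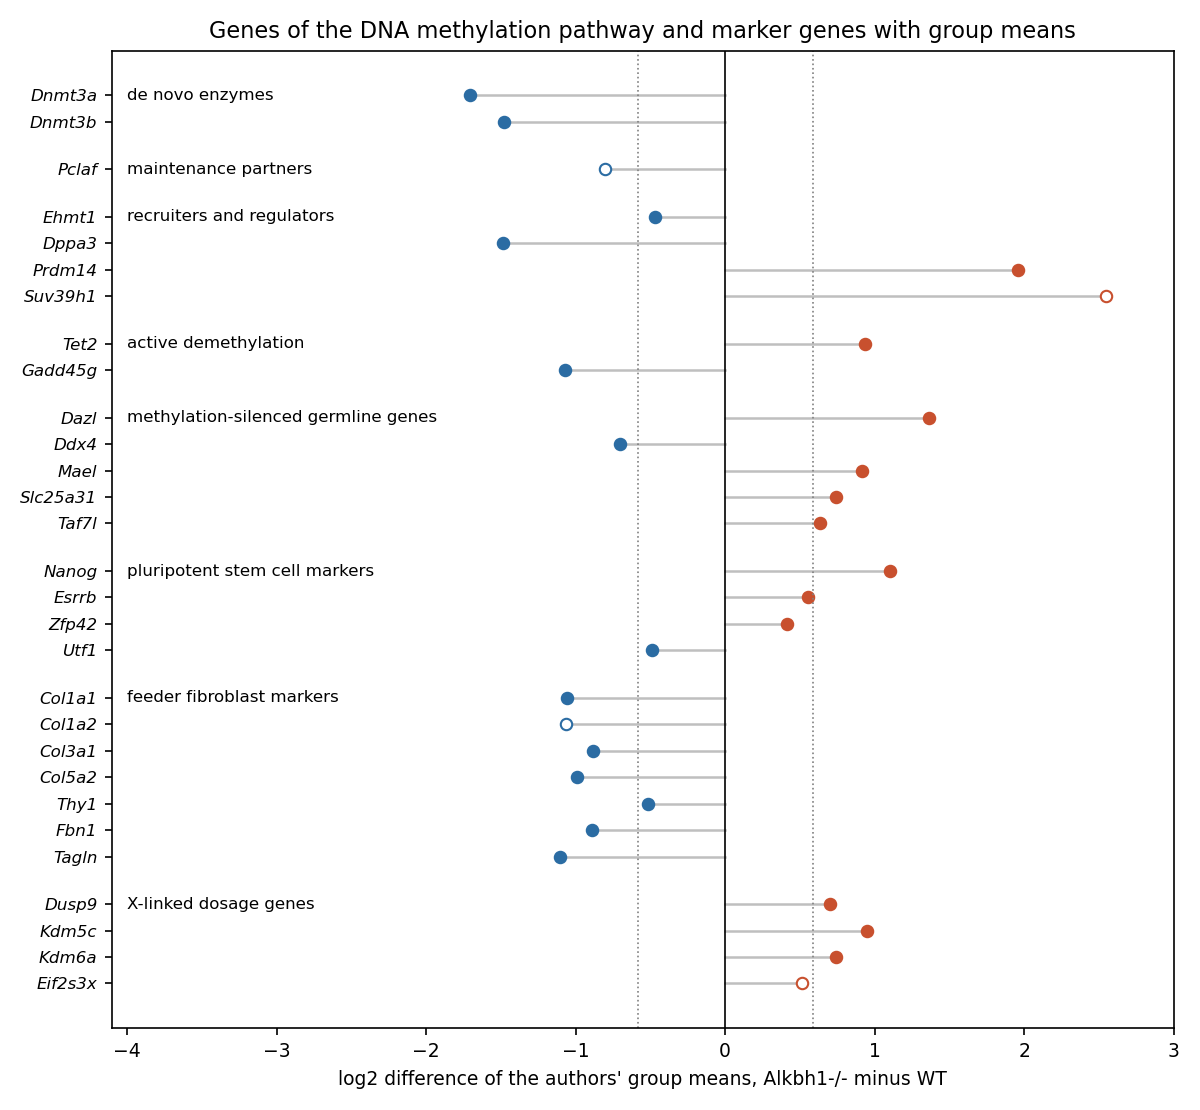
The horizontal axis gives the log2 difference of the authors' group means, *Alkbh1*-/- minus WT, for *Dnmt3a*, *Dnmt3b* and the genes with group means on 7 of the lists; open points are probe sets that are not the brightest of their gene, and dotted lines mark 1.5-fold. *Dnmt3a*, at -1.71, lies furthest to the left of the genes shown, with *Dppa3* at -1.49 and *Dnmt3b* at -1.48 next; the 7 feeder markers all lie left of 0 and the 4 X-linked dosage genes all right of it.

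Markers of other cells also differed between the genotypes. Feeder cells can remain in mESC cultures, and 7 of 12 fibroblast genes had group means, all 7 lower in *Alkbh1*-/- cells and 6 of them by more than 1.5-fold. Of all probe sets, 12.8% had group means, and 30.3% of those were lower by more than 1.5-fold. *Fn1* and *Acta2*, with mean log2 levels over all arrays of 12.06 and 11.18, had none. The brightest probe set of the collagen gene *Col1a2*, at 11.82, had none either, and one at 9.46 was used. The log2 differences of the 7 had a median of -0.99. They ran from -1.11 for *Tagln*, an actin-binding protein of contractile cells, through -1.06 for *Col1a2*, to -0.52 for *Thy1*. Of the *Dnmt3a* probe sets 3, and all 3 of *Dnmt3b*, had larger differences than every one of these, while the other two of *Dnmt3a*, at -1.08 and -0.96, lay within their range. No array was of feeders alone, so the level of *Dnmt3a* and *Dnmt3b* in feeders is unknown and these sizes cannot show the part of feeder RNA. That part was not tested. Of the 7 pluripotency markers, 4 had group means, with *Nanog*, a factor of the naive state, at 1.10, *Esrrb* at 0.55, *Zfp42* at 0.41 and *Utf1* at -0.49 on the log2 scale. Of these, only *Nanog* differed by more than 1.5-fold.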

How the data were processed

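Gene expression was measured on 6 Affymetrix arrays, 3 of WT and 3 of *Alkbh1*-/- mESCs. The authors normalized the 6 arrays jointly by RMA (robust microarray analysis). In the larger deposited table of 33142 probe sets, the mean log2 value over all arrays was used. The other deposited table, in which a service company compared the classes, gives the geometric mean intensity per genotype for 4326 entries with a nominal p under 0.05, of 7320 that passed an unstated filter. Its WT class carries a wrong name, which a deposited note corrects. Both tables also hold the authors' fold changes, test statistics and p-values, none of which were used. Array number limits the precision.

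The identifiers of the class comparison were not used, because 8 of the 4232 matched entries printed the identifier of the probe set with the same values. An entry was matched to the probe set whose mean log2 value over all arrays equalled the mean of its 2 log2 group means within 1e-06, where exactly 1 did so (4232 entries, largest gap 3.56e-07). No probe set lay within it for 65 entries, and over 1 did for 29. Differences are log2 of the *Alkbh1*-/- mean minus log2 of the WT mean. Calls are over 1.5-fold, with no test: the limma fit set in the design needs single arrays, which were not analysed here. The probe set with the highest mean stood for a gene. Named are all members' probe sets, *Alkbh1*, and per list up to 2 genes with the highest and 2 with the lowest differences, or up to 2 with the highest mean where none had one. Beside these, *Pcna*, *Usp7*, *Pou5f1*, *Sox2*, *Slc25a31*, *Fn1* and *Acta2* were named after their values were seen. Some genes of the reader and methyl donor lists are not reported here. Members and lists were chosen with earlier results of these data known. Genes were named through RefSeq identifiers (GRCm38.p6) for 85.1% of probe sets. Python 3.11.15, pandas 2.3.3, NumPy 2.4.6 and matplotlib 3.10.9 were used.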

Additional observations from a re-analysis of the deposited data

How the results depend on the processing

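With matching by value, the direction of *Dnmt3a* and *Dnmt3b* was the same for every choice of probe set. The log2 difference of *Dnmt3a*, -1.71 at its brightest probe set, was -1.37 as the mean of its probe sets and -0.96 at the dimmest. That of *Dnmt3b*, -1.48, was -1.56 as the mean and -1.47 at the dimmest, which is also its brightest probe set without a suffix letter. Matching by printed identifier gave 0.61 for *Dnmt3a*, a reversal, and -0.43 for *Dnmt3b*, with 3 of their 8 probe sets higher. Under that matching *Alkbh1* had -1.22 at its brighter probe set and 0.60 at the other, and the Y-linked *Eif2s3y* 0.53 in place of -5.65. With a tolerance 10 times tighter, 2 of the 8 *Dnmt3a* and *Dnmt3b* probe sets were no longer matched. Lost were 1423066_at, the brightest of *Dnmt3a*, with a gap of 1.1e-07, and 1460324_at, its dimmest, with a gap of 1.05e-07. The value of -1.71 for *Dnmt3a* is thus not available at that tolerance. The 1389 higher and 1284 lower probe sets became 455 and 337 at 2-fold, 154 and 91 at a log2 difference over 1.5, and 849 and 798 among probe sets at or above the median level. Without X- and Y-linked genes they were 1001 and 1255, and with the tighter tolerance 1160 and 1097. No alternative was computed for *Dnmt1*, *Dnmt3l* and *Uhrf1*, which have no group means among the values used. No paired analysis was possible because the values used are means over arrays, and leaving out a replicate was not run for the same reason. Signal over background is unknown, so how far dim probe sets understate a difference was not tested.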
